A study of Homo sapiens with 6 samples.

Results

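The enzymes that build and recycle nucleotides were followed in RNA sequencing of 6 libraries of a colorectal cancer line. The set was a list of 33 gene symbols covering the deoxynucleotide, pyrimidine, purine and folate steps. It was chosen by function, with earlier results of these data known. All 33 had a row among the 16229 gene symbols of the counts table, and all 33 passed the filter on low counts that left 12604 genes to test. In the libraries of cells kept with GCA, 23 of the 33 were lower than in the control libraries, 1 was higher and 9 did not pass the test. Of all genes tested, 18.1% were called lower and 18.3% higher (edgeR's quasi-likelihood test, Benjamini-Hochberg adjusted p under 0.05).

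Both groups are wild-type cells labelled MC38, described as colorectal cancer cells, with no further allele named. The GCA group (3 libraries) was kept with GCA for 24 hours and the CON group (3 libraries) without it, and the series title gives GCA as glycocholic acid, a glycine-conjugated bile acid. No source used here gives the dose. The samples carrying the GCA label have titles beginning fa, which those sources do not explain. MC38 is known as a mouse line, whereas its labelled organism is human and the tables hold human symbols; the extraction text names heart tissue, and polyA RNA stands beside a kit that depletes ribosomal RNA from total RNA. All values therefore describe human-annotated libraries of these labels, from 1 line. No label says that replicates were separate cultures: each p-value measures just how these samples spread, and that spread may be technical. The epithelial markers KRT8 and EPCAM were abundant, while LGR5, CDX1, CDH17 and CEACAM5 stood under 1 CPM (CPM, counts scaled to TMM-adjusted library size). KRT20 and VIL1 were low too, at means of 0.92 and 0.61 CPM in CON, against 1.92 and 0.73 in GCA. CDX2 stood well above these low markers, averaging 30.8 CPM over the CON libraries, against 36.7 CPM over the GCA libraries, and was not called. Summed over the 12 epithelial markers listed, the level ran from 7919 to 10111 CPM in CON, against 11132 to 12703 in GCA. Of 8 tested, 4 were called higher (KRT8, KRT18, KRT20 and CDH1) and none lower, where 18.3% and 18.1% of all genes were.

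Total counts ran from 18057453 to 20531612 per library. The first principal component, with 65.7% of the variance, parted the groups. The second, with 18.1%, set CON 1 (34.5) apart from CON 2 (-14.7) and CON 3 (-17.8), so member calls that turn on CON 1 are given with and without it. The summed markers of leukocytes ran from 19.8 to 26.8 CPM in CON, against 15 to 25.8 in GCA, nearly all of it CD68, with PTPRC and CD3E at 0 or 1 count. Those of fibroblasts and endothelium ran from 11.9 to 13.2 and 16.5 to 18.5, mostly COL1A1, with COL1A2, DCN and LUM at 3 counts or fewer. COL1A1 was called higher by 0.44 on the log2 scale and VWF, at means of 0.62 and 1.68 CPM, by 1.43, while PDGFRB was not called. The summed markers of heart muscle ran from 23.5 to 26.8 and 37.2 to 42.4, mostly TNNI3 (mean 23.8 and 38.1), which was called higher by 0.68. MYL2 went from 1.64 to 0.98 CPM, not called, while MYH6, MYH7, ACTC1 and NPPA had 0 or 1 count in each library. TNNT2 had 1, 1 and 0 counts in CON, against 2, 11 and 10 in GCA, and did not pass the filter on low counts. The part of these markers, the epithelial ones included, in the results below was not tested.

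Cells make purine nucleotides by building a ring on phosphoribosyl pyrophosphate (PRPP) until inosine monophosphate (IMP) is reached, which then branches to adenine and guanine nucleotides. Pyrimidines are built as a free ring that is joined to PRPP afterwards, and ribonucleotide reductase converts ribonucleotides to the deoxynucleotides that DNA synthesis consumes. Folates carry the carbon units for purine rings and for thymidylate, and salvage enzymes reuse bases and nucleosides. Dividing cells, tumour cells included, depend on these routes, and several of the enzymes are drug targets.

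Stretches of 140 bases just before the annotated start of 6 of these genes are shown because the genes include the 3 largest falls (RRM2, PFAS, GART), the thymidylate step (TYMS), the last purine step (ATIC) and the member that rose (SHMT1). The sequences are RefSeq's for GRCh38.p14, on the strand of the gene. The RefSeq starts of RRM2 and PFAS used here lie downstream of the first base of their annotated gene spans. Capitals mark matches to CCAAT, to the E-box CACGTG, or to the E2F-like words TTTCCCGC, TTTGGCGC and TTTCGCGC, searched on both strands, so that ATTGG is CCAAT and GCGGGAAA is an E2F-like word read on the other strand. No match of 1 motif overlapped a match of another.
RRM2, chr2:10122599-10122738, plus strand: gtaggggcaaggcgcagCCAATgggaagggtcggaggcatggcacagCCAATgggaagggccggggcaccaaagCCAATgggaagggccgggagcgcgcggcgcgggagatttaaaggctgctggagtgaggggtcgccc
PFAS, chr17:8249149-8249288, plus strand: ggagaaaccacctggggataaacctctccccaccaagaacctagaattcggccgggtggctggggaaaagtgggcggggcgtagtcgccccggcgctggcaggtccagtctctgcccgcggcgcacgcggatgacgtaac
GART, chr21:33542893-33543032, minus strand: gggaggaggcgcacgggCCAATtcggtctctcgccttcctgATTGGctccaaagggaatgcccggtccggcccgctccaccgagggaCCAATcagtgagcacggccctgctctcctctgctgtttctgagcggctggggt
TYMS, chr18:657513-657652, plus strand: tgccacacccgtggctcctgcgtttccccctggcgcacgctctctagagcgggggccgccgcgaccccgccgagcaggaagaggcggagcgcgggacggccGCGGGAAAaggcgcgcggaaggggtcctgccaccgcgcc
ATIC, chr2:215311919-215312058, plus strand: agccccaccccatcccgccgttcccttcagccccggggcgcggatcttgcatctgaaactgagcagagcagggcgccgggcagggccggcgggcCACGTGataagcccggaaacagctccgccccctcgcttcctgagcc
SHMT1, chr17:18363551-18363690, minus strand: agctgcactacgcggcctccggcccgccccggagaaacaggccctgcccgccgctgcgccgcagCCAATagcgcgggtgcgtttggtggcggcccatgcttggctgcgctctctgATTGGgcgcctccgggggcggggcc

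Promoter entries, each 250 bases before to 50 after the start, were matched for 30 of the 33 genes. RRM2 and GART each hold 3 CCAAT matches, each in RRM2 followed by the same bases, and PFAS holds none of these motifs. CCAAT was found in 11 of the 30 (36.7%), against 35.7% of all 27305 entries and 36.2% of the 12797 entries of genes in the counts table. The E-box was found in 7 (23.3%), namely DCTPP1, DCK, DHODH, NME1, PPAT, ATIC and MTHFD1, against 7.43% and 9.60%. Of these 7, DCTPP1 and NME1 were not called. The E2F-like words were found in 3 (10%), namely TYMS, DCK and PRPS2, against 2.79% and 4.18%. Of 11 promoters of replication genes listed for comparison, 90.9% held an E2F-like word, 81.8% CCAAT and 18.2% the E-box. A match is a run of letters and says nothing of binding.

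In GCA all 3 libraries lay below all 3 CON libraries in 24 of the 33 genes, where 24.3% of all genes tested did so, and above them in 1, where 24.1% did so. The remaining 8 overlapped. The median log2 fold change was -0.54 over the 33 and -0.04 over all genes tested. Summed over the 33, the level ran from 5505 to 6475 CPM in CON, against 4493 to 5081 CPM in GCA. In bulk RNA, fewer cells that express these genes and less RNA per cell cannot be told apart.

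**Figure D1:**
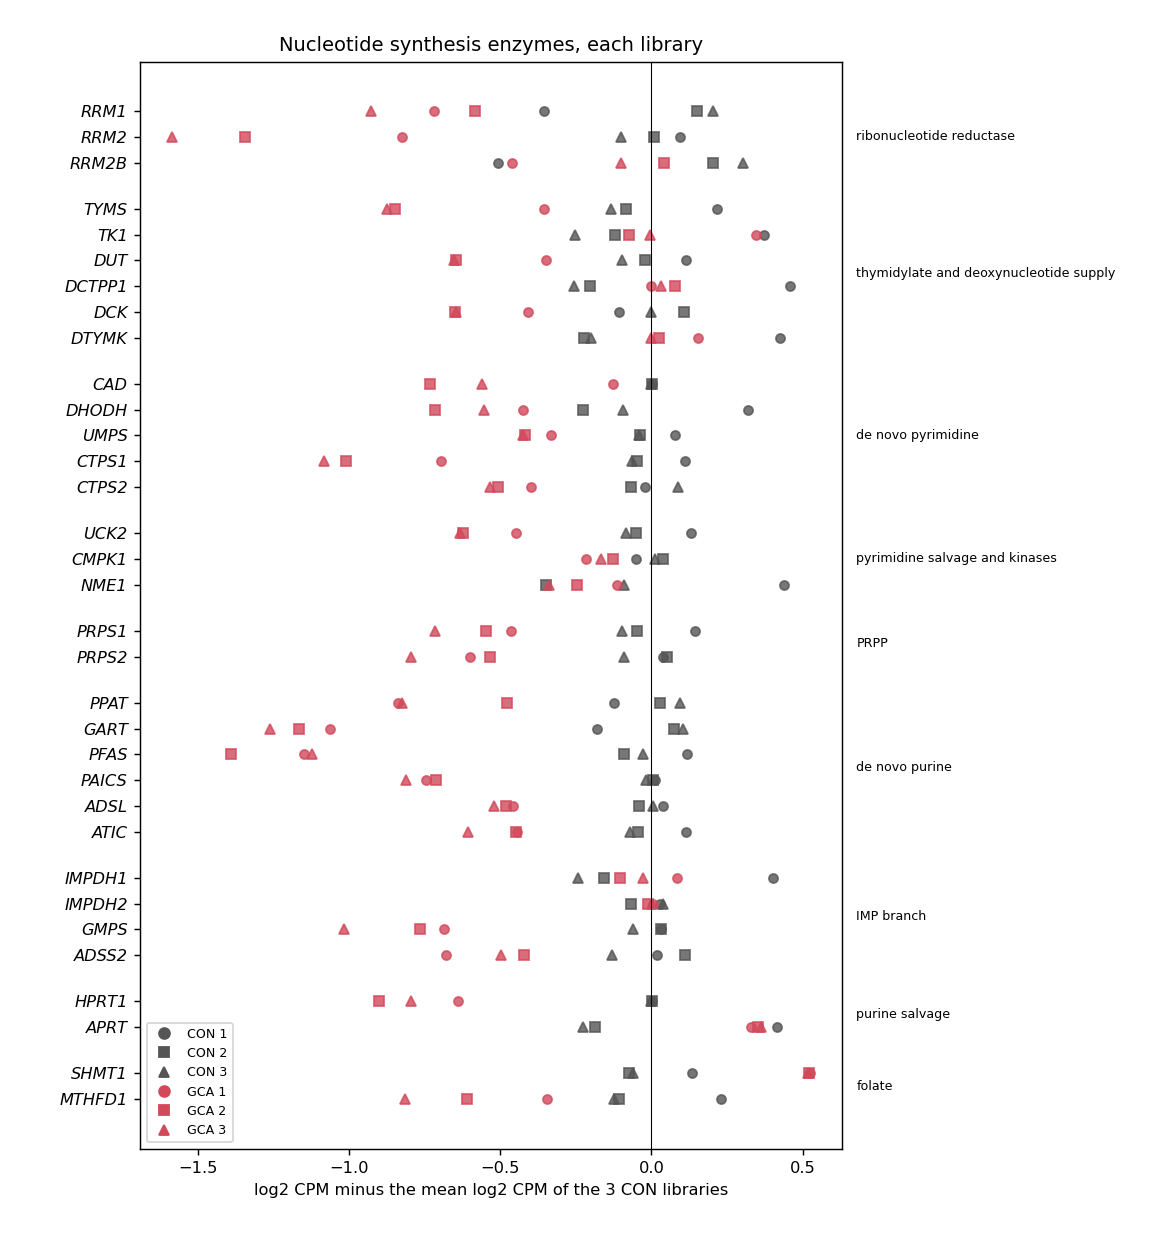
Each of the 33 genes by role (rows), with 1 point per library: log2 CPM minus the mean of the 3 CON libraries, grey for CON and red for GCA, the shape giving the replicate number. In 24 rows every red point lies left of every grey point, and in the row of SHMT1 every red point lies right of them.

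Ribonucleotide reductase makes deoxynucleotides and is a complex of a large subunit, RRM1, with a small subunit. RRM2 is the small subunit of cycling cells, and its levels were 378, 355 and 330 CPM in CON 1 to 3 and 199, 139 and 118 CPM in GCA 1 to 3. The groups did not overlap, and RRM2 fell by 1.22 ± 0.17 (SE) on the log2 scale (adjusted p = 0.000276), to 43.0% of the CON level (chromosome 2, 10122568 to 10211010, GRCh38). RRM1 was at 52.9, 75.1 and 77.9 CPM in CON, against 41.1, 45.1 and 35.6 CPM in GCA. CON 1 was the lowest control and still above every GCA library, and RRM1 fell by 0.76 ± 0.16 (adjusted p = 0.0027). RRM2B, the p53-inducible small subunit, was at 27.2, 44.6 and 47.8 CPM in CON, against 28.1, 39.9 and 36.1 CPM in GCA. Its groups overlapped because CON 1 lay below all GCA libraries, and its difference was -0.20 (95% interval -0.62 to 0.21, adjusted p = 0.431). Without CON 1 RRM2B was called lower, at -0.42 (adjusted p from 0.0172 to 0.909 over its 19 alternatives).

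Per length, RRM2 exceeded RRM2B in every library, by 20.4, 11.7 and 10.1 times in FPKM in CON (counts scaled to library total and gene length) and 10.4, 5.14 and 4.80 times in GCA. GCA 1 lay above CON 3, so the groups overlapped, and the mean log2 ratio was 3.75 ± 0.53 (SD, n = 3) in CON, against 2.67 ± 0.62 in GCA (exact two-sided permutation p = 0.2, adjusted over 7 ratios 0.467). With 3 libraries against 3 the smallest p that this test can give is 0.1. Within same-numbered libraries the log2 ratio was lower in GCA in 3 of 3 pairs, by differences of -0.97, -1.19 and -1.08 (exact sign-flip permutation p = 0.25, the smallest that 3 pairs can give, adjusted over 7 ratios 0.35).

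Thymidylate synthase, TYMS, makes thymidylate from deoxyuridylate with a folate carbon. It was at 369, 300 and 290 CPM in CON, against 248, 177 and 173 CPM in GCA. Every GCA library lay below every CON library, and TYMS fell by 0.68 ± 0.16 (adjusted p = 0.00587). DUT, the dUTPase that supplies deoxyuridylate and keeps uracil out of DNA, was at 146, 133 and 126 CPM in CON, against 106, 86.3 and 86.0 CPM in GCA, without overlap, and fell by 0.54 ± 0.13 (adjusted p = 0.00538). DCK, the salvage kinase for deoxycytidine and other deoxynucleosides, was at 47.2, 54.8 and 50.8 CPM in CON, against 38.4, 32.4 and 32.5 CPM in GCA. Its groups did not overlap and it fell by 0.56 ± 0.12 (adjusted p = 0.0037).

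The other 3 genes of deoxynucleotide supply were not called, and in all 3 CON 1 was the highest of the 6 libraries. TK1, the cytosolic thymidine kinase, was at 837, 594 and 543 CPM in CON, against 822, 614 and 644 CPM in GCA (0.08 ± 0.18, 95% interval -0.30 to 0.45). DTYMK, which phosphorylates thymidylate, was at 189, 121 and 123 CPM in CON, against 157, 144 and 141 CPM in GCA (0.03 ± 0.16). DCTPP1, a pyrophosphatase that clears dCTP and modified cytosine nucleotides, was at 337, 213 and 206 CPM in CON, against 245, 259 and 251 CPM in GCA. All GCA values of DTYMK and DCTPP1 lay between CON 1 and the other controls. Without CON 1 both were called higher, DTYMK at 0.27 and DCTPP1 at 0.26 (adjusted p over their 19 alternatives from 0.00727 to 0.995 and from 0.00105 to 0.997). With the replicate block together with offsets for GC content and length the direction was the opposite: TK1 at -0.41, DTYMK at -0.25 and DCTPP1 at -0.36 were called lower. Without replicate 1 of both groups all 3 were called higher, TK1 at 0.17 (adjusted p from 0.00542 to 0.963 over its 19 alternatives). No direction is given for these 3 genes.

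All 5 genes of the pyrimidine ring and of CTP were called lower. CTPS1, the CTP synthase that proliferating lymphocytes require, was at 85.1, 76.2 and 75.3 CPM in CON, against 48.6, 39.1 and 37.2 CPM in GCA. The groups did not overlap, and CTPS1 fell by 0.92 ± 0.13 (adjusted p = 0.000268), to 52.8% of the CON level. CAD, which carries the opening enzymes of the pathway on 1 protein, was at 298, 298 and 297 CPM in CON, against 273, 179 and 202 CPM in GCA. CON libraries of CAD were nearly equal and GCA 1 lay close under them, and CAD fell by 0.45 ± 0.15 (adjusted p = 0.0335). DHODH, the mitochondrial dihydroorotate dehydrogenase, was at 33.5, 22.9 and 25.2 CPM in CON, against 20.0, 16.3 and 18.3 CPM in GCA and fell by 0.58 ± 0.16 (adjusted p = 0.0143). UMPS, which closes the route to UMP, was at 42.6, 39.2 and 39.1 CPM in CON, against 32.0, 30.1 and 30.0 CPM in GCA and fell by 0.39 ± 0.11 (adjusted p = 0.0172). CTPS2, the second CTP synthase, was at 9.41, 9.12 and 10.1 CPM in CON, against 7.24, 6.72 and 6.60 CPM in GCA and fell by 0.48 ± 0.16 (adjusted p = 0.036). None of the 5 overlapped between the groups.

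Of these 5, CTPS1 alone was called in every fit that left out 1 library. CAD and UMPS were lost without CON 2, CON 3, GCA 2 or GCA 3, DHODH without GCA 2 or GCA 3, and CTPS2 without any library but CON 1. Over these 6 fits the highest adjusted p was 0.153 for CAD, 0.0716 for DHODH, 0.0736 for UMPS and 0.146 for CTPS2.

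The ratio of CTPS1 to CTPS2 in FPKM was 11.3, 10.4 and 9.26 in CON, against 8.36, 7.27 and 7.03 in GCA. The groups did not overlap, and the log2 ratio went from 3.36 ± 0.14 to 2.91 ± 0.13 (SD, n = 3; exact permutation p = 0.1, the smallest possible, adjusted 0.35).

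In pyrimidine salvage, UCK2, a uridine and cytidine kinase, was at 144, 127 and 124 CPM in CON, against 96.0, 85.1 and 84.6 CPM in GCA. It did not overlap and fell by 0.57 ± 0.12 (adjusted p = 0.00296). CMPK1, which phosphorylates CMP and UMP, was lower in all GCA libraries by a small margin, at 80.6, 85.8 and 84.1 CPM in CON, against 71.9, 76.4 and 74.4 CPM in GCA, and did not pass the test (-0.17 ± 0.11, 95% interval -0.40 to 0.06). NME1, a nucleoside diphosphate kinase, was at 134, 77.8 and 93.0 CPM in CON, against 91.6, 83.4 and 78.4 CPM in GCA. Its groups overlapped, with CON 1 far above the rest (-0.27 ± 0.17, 95% interval -0.64 to 0.10), and the annotated readthrough gene NME1-NME2 shares exon bases with it. Leaving out 1 library at a time gave -0.42 to -0.018 for NME1, never called.

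PRPP, the sugar phosphate that both routes use, is made by PRPS1 and PRPS2. PRPS1 was at 58.0, 50.9 and 49.1 CPM in CON, against 38.1, 35.9 and 32.0 CPM in GCA and fell by 0.58 ± 0.12 (adjusted p = 0.00338). PRPS2 was at 53.4, 53.8 and 48.8 CPM in CON, against 34.3, 35.8 and 29.9 CPM in GCA and fell by 0.64 ± 0.12 (adjusted p = 0.0015). Neither overlapped between the groups, and the log2 ratio of PRPS1 to PRPS2 in FPKM was 0.27 ± 0.10 in CON, against 0.34 ± 0.075 in GCA (SD, n = 3; exact permutation p = 0.5, adjusted 0.7).

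All 6 genes of the purine route from PRPP to IMP were lower in GCA, none with overlap. GART, whose protein catalyses several early ring steps including a formyl transfer from folate, was at 228, 272 and 277 CPM in CON, against 123, 115 and 108 CPM in GCA. The lowest control stood well above the highest GCA library, and GART fell by 1.17 ± 0.13 (adjusted p = 4.22e-05), to 44.5% of the CON level. PFAS, the next enzyme of the route, was at 117, 101 and 106 CPM in CON, against 48.7, 41.3 and 49.7 CPM in GCA. It fell by 1.22 ± 0.12 (adjusted p = 2.51e-05), to 43.0% of the CON level (chromosome 17, 8247608 to 8270486). In none of the 19 alternative analyses did PFAS or GART lose its call.

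PAICS, which carries a carboxylase and a synthetase of the middle of the route, was the most abundant of the 6 in FPKM. It was at 451, 448 and 441 CPM in CON, against 266, 272 and 255 CPM in GCA, and it fell by 0.76 ± 0.12 (adjusted p = 0.000449). PPAT, the amidotransferase that commits PRPP to purines, was at 40.7, 45.2 and 47.3 CPM in CON, against 24.8, 31.9 and 25.0 CPM in GCA, and it fell by 0.71 ± 0.13 (adjusted p = 0.00163). The libraries of both genes separated cleanly, and the annotation places PPAT and PAICS on opposite strands of chromosome 4 with overlapping spans (56393362 to 56435615 and 56410507 to 56464578). ADSL, which acts both in the ring and in AMP synthesis, was at 169, 160 and 165 CPM in CON, against 120, 118 and 115 CPM in GCA and fell by 0.49 ± 0.11 (adjusted p = 0.00465). ATIC, which closes the ring to IMP, was at 187, 167 and 164 CPM in CON, against 127, 126 and 113 CPM in GCA and fell by 0.50 ± 0.12 (adjusted p = 0.0057). ADSL and ATIC had the smaller falls of the 6, and their spread within a group was small beside the gap between the groups. Summed over the 6 genes, the level was 1192 to 1201 CPM in CON, against 665 to 710 CPM in GCA.

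At the branch from IMP the 4 genes went apart. GMPS, the GMP synthetase, was at 90.8, 90.7 and 85.1 CPM in CON, against 55.2, 52.2 and 43.9 CPM in GCA, without overlap, and fell by 0.82 ± 0.12 (adjusted p = 0.000365). ADSS2, which opens the branch to AMP, was at 37.8, 40.2 and 34.1 CPM in CON, against 23.3, 27.8 and 26.4 CPM in GCA, without overlap, and fell by 0.53 ± 0.13 (adjusted p = 0.00641). IMPDH2 and IMPDH1, the dehydrogenases that open the branch to GMP, were not called. IMPDH2 was at 806, 753 and 810 CPM in CON, against 792, 784 and 790 CPM in GCA, with a 95% interval of its log2 difference from -0.26 to 0.26. IMPDH1 was at 221, 150 and 142 CPM in CON, against 178, 156 and 164 CPM in GCA (95% interval -0.39 to 0.30). IMPDH2 had the highest mean FPKM of the members in both groups, at 466 ± 27.0 in CON, against 450 ± 0.831 in GCA (SD, n = 3), but TK1 followed within its own spread, at 430 ± 72.4 and 442 ± 70.2. The log2 ratio of IMPDH1 to IMPDH2 was -2.86 ± 0.34 and -2.87 ± 0.087 (exact permutation p = 0.9, adjusted 0.9).

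**Figure D2:**
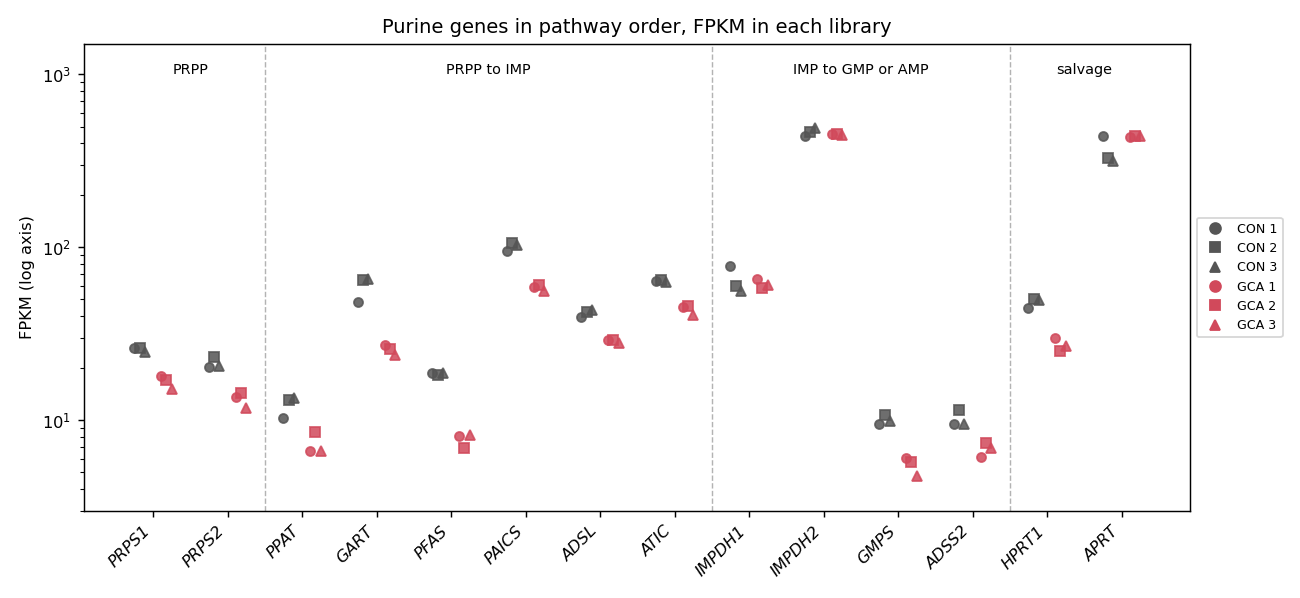
Purine genes in the order of the route (horizontal axis) against FPKM on a log axis, 1 point per library, grey for CON and red for GCA. From PRPS1 to ATIC the 3 red points of each gene lie under the 3 grey points, whereas the points of IMPDH1, IMPDH2 and APRT overlap.

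The 2 purine salvage enzymes differed in call. HPRT1, which salvages hypoxanthine and guanine, was at 66.2, 66.1 and 66.0 CPM in CON, against 42.4, 35.4 and 38.1 CPM in GCA. The CON libraries were almost equal, and HPRT1 fell by 0.77 ± 0.12 (adjusted p = 0.000371). APRT, which salvages adenine, was at 435, 287 and 279 CPM in CON, against 410, 417 and 420 CPM in GCA. CON 1 alone kept its groups from separating, and APRT was not called (0.32 ± 0.16, adjusted p = 0.147). Without CON 1 it was called higher, at 0.55, and with offsets for GC content and length it was called lower, at -0.31 (adjusted p from 8.27e-07 to 0.416 over its 19 alternatives).

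SHMT1, the cytosolic serine hydroxymethyltransferase that loads folate with a carbon from serine, was the only member called higher. It was at 106, 92.2 and 92.9 CPM in CON, against 140, 139 and 139 CPM in GCA. Every GCA library lay above every CON library, and SHMT1 rose by 0.52 ± 0.11 (adjusted p = 0.00406), to 143% of the CON level. SHMT1 was called higher in all 19 alternative analyses. MTHFD1, the cytosolic enzyme that interconverts folate carbons for purines and thymidylate, was at 197, 156 and 155 CPM in CON, against 133, 110 and 95.7 CPM in GCA. Its groups did not overlap, and it fell by 0.59 ± 0.15 (adjusted p = 0.00838). That call was lost without GCA 3 (adjusted p from 8.44e-06 to 0.0634 over its 19 alternatives).

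Both cytosolic folate enzymes have a mitochondrial counterpart. The FPKM of SHMT1 relative to SHMT2 was 0.162, 0.168 and 0.164 in CON, against 0.224, 0.274 and 0.267 in GCA, without overlap, and the log2 ratio went from -2.60 ± 0.028 to -1.98 ± 0.16 (SD, n = 3; exact permutation p = 0.1, the smallest possible, adjusted 0.35). MTHFD1 relative to MTHFD2 was 1.03, 0.497 and 0.460 in CON, against 1.04, 0.914 and 0.771 in GCA. CON 1 lay among the GCA libraries there (log2 ratio -0.69 ± 0.64 and -0.15 ± 0.22, exact permutation p = 0.3, adjusted 0.525). The log2 ratio of TK1 to its mitochondrial counterpart TK2 was 7.12 ± 0.58 and 6.96 ± 0.30 (exact permutation p = 0.8, adjusted 0.9).

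**Figure D3:**
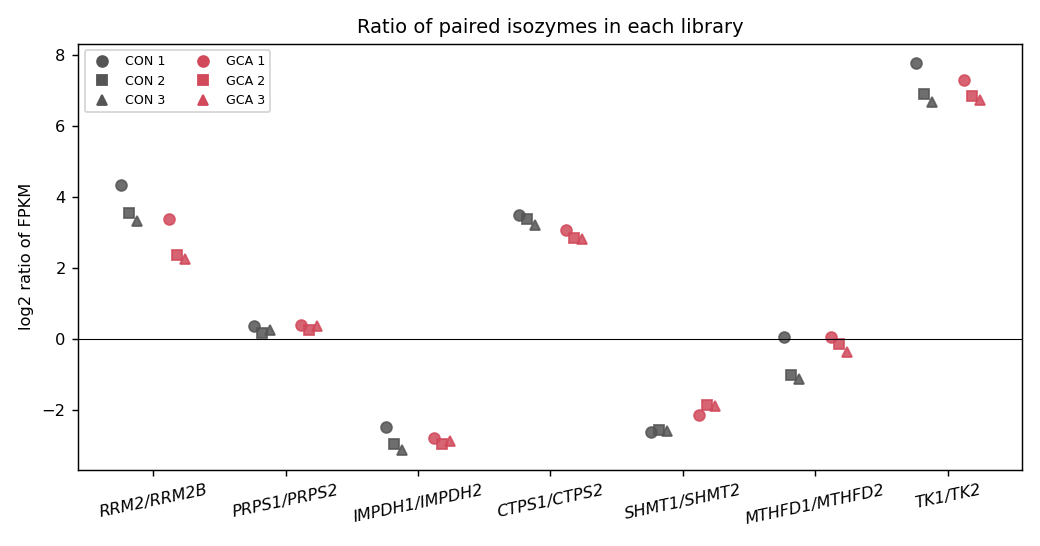
Log2 ratio of FPKM within each library for 7 pairs of isozymes (horizontal axis), 1 point per library, grey for CON and red for GCA. The red points lie under the grey points for CTPS1/CTPS2 and above them for SHMT1/SHMT2, and the other 5 pairs overlap.

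Of the 23 falls, 15 were called in each of the 19 alternative analyses: RRM1, RRM2, TYMS, CTPS1, UCK2, PRPS1, PRPS2, PPAT, GART, PFAS, PAICS, ADSL, ATIC, GMPS and HPRT1. How many of all genes were called lower in every one of these analyses was not counted. All 23 were called lower with the replicate number as a block, where 21% of all genes were. Leaving out CON 1 gave 24 members lower and 4 higher, where 27.3% and 25.3% of all genes were called.

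**Figure D4:**
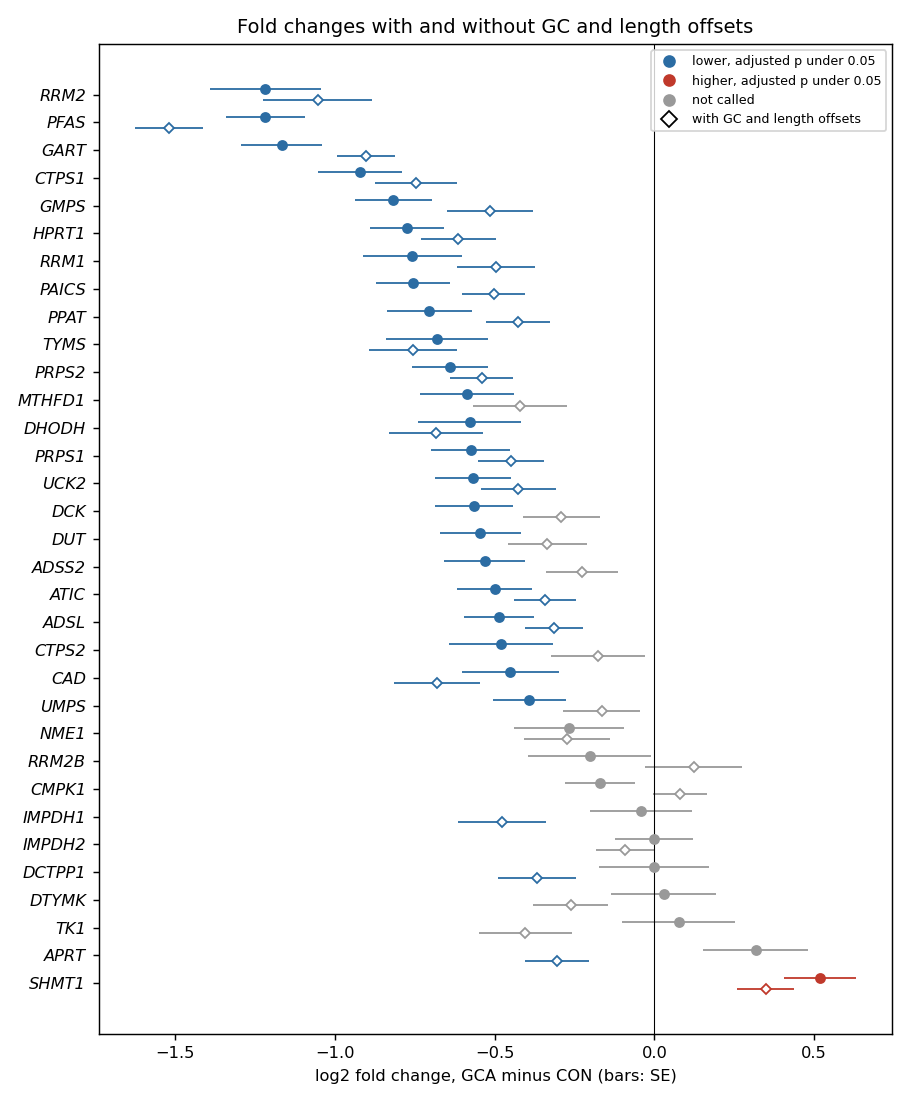
Log2 fold change, GCA minus CON, of the 33 genes, as filled circles with bars of 1 SE, blue where called lower, red where called higher and grey where not called; open diamonds give the same with offsets for GC content and length. RRM2, PFAS and GART stand lowest, at -1.22, -1.22 and -1.17, and SHMT1 at 0.52 is the only red circle.

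Fold changes moved with the GC content of the transcripts, across all genes and within the set. Across 12563 genes tested with a GC value, Pearson's r between GC content and log2 fold change was 0.485 (Spearman's rho 0.572), and across the 33 members it was 0.459 (0.390). Genes share these 6 libraries and are not independent replicates. By GC content, 7 of 9 members under 45%, 12 of 13 from 45 to 50%, 2 of 4 from 50 to 55% and 2 of 7 at 55% or above were called lower. The share of all genes called lower was not counted by GC class, so these counts have no background of their own class. The 2 in the GC-richest class were CAD (57.2% GC) and PFAS (59.0%), and the other 5 there were TK1, DCTPP1, DTYMK, IMPDH1 and APRT.

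With offsets for GC content and length in each library, 20 members were lower and 1 was higher, where 16.6% and 11.8% of all genes were called. Of the 23 falls 17 were called again, while DUT, DCK, UMPS, CTPS2, ADSS2 and MTHFD1 were not (highest adjusted p over the alternatives 0.0693, 0.102, 0.336, 0.401, 0.159 and 0.0634). DCTPP1, IMPDH1 and APRT were called lower with the offsets, at -0.37, -0.48 and -0.31. Among genes still called, RRM1, PPAT, ADSL and GMPS kept smaller falls, at -0.50, -0.43, -0.31 and -0.51, whereas CAD moved to -0.68. The median over the 33 was then -0.42. What the relation with GC content comes from was not tested.

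**Figure D5:**
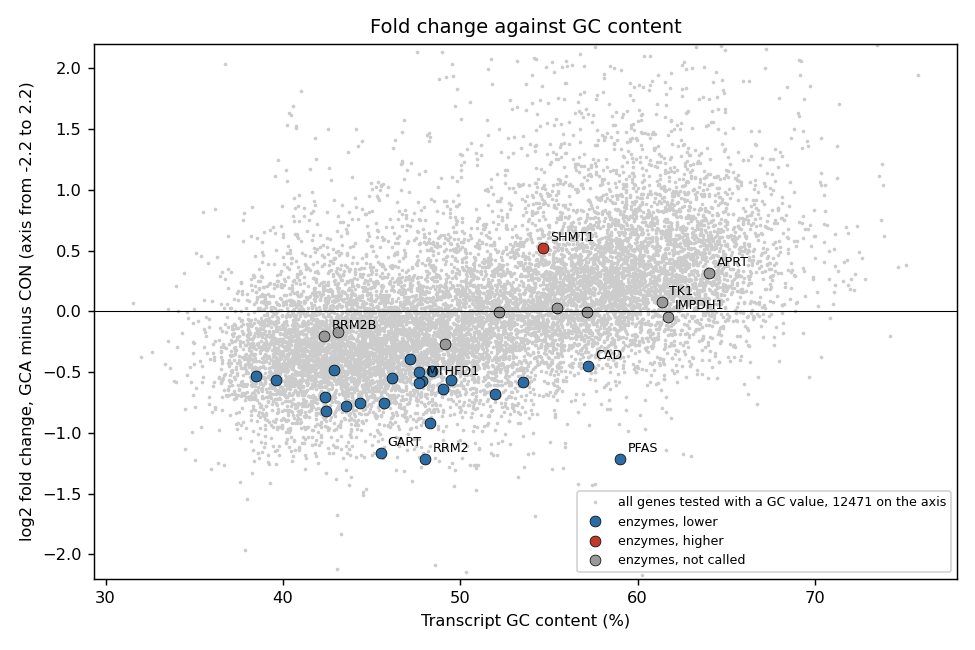
GC content of the transcript (horizontal axis, %) against log2 fold change, GCA minus CON, for genes tested (small grey points) and the 33 members (large points coloured by call, 10 of them named). All members under 50% GC lie below 0, and those at 55% or above run from PFAS at -1.22 to APRT at 0.32; 92 genes beyond 2.2 in either direction are not drawn.

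Some member counts can hold reads of neighbours or lack reads of shared bases, since the strand setting of the counting is not given. Exons of TYMS share 39.1% of their bases with ENOSF1 on the other strand (-0.33, not called; called lower without replicate 1 of both groups), those of DCTPP1 42.1% with ZNF771 (0.65, called higher, a call lost without GCA 2 and with the GC offsets), and those of GART 3.55% with SON (-0.31, not called; called lower with the replicate block, with scaling by library size only and without replicate 1 of both groups). On the same strand, RRM2 shares 20.2% of its exon bases with AC007240.1 and ADSL 18.9% with AL022238.4, neither of which has a row in the counts table. Annotated pseudogene copies number 8 for DUT, 7 each for PAICS and IMPDH1 and 3 each for RRM2 and HPRT1, so their counts are less certain.

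The other genes of these pathways, on lists chosen by function with earlier results of these data known, gave a less uniform picture. The shares of all genes tested, 18.1% lower and 18.3% higher, apply to each count of the reported fit below. For counts with the GC offsets the shares were 16.6% lower and 11.8% higher, and for those with the replicate block 21% and 20%. Of 16 further folate and one-carbon genes tested, 6 were lower and 1 was higher, and 6 and 3 with the GC offsets. MTHFD2, the mitochondrial enzyme upstream of formate, went from 394 ± 110 to 174 ± 4.54 CPM (SD, n = 3) and fell by 1.18 ± 0.18 (adjusted p = 0.000445). MTRR, which reactivates methionine synthase, fell by 0.83 ± 0.16 and MTHFD1L, which releases mitochondrial formate, by 0.69 ± 0.13. SHMT2, the mitochondrial counterpart of SHMT1, was not called (-0.10 ± 0.14, adjusted p = 0.58), and was called lower with the GC offsets, at -0.43.

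Of 3 serine synthesis genes, PSAT1 fell by 1.20 ± 0.19 (adjusted p = 0.000557) and PSPH by 0.43 ± 0.13 (adjusted p = 0.0224), the latter lost without CON 2, CON 3, GCA 2 or GCA 3. Of 20 other nucleotide kinases and salvage genes, 7 were higher and 3 lower, but 3 and 2 with the GC offsets and 9 and 4 with the replicate block. ADSS1, the muscle-type counterpart of ADSS2, rose by 1.04 ± 0.23 from a low level (8.89 ± 2.74 CPM in CON). CMPK2 rose by 1.01 ± 0.26 from a lower one (1.64 ± 0.29 CPM in CON), and by 0.36 to 1.18 over its 19 alternatives. CDA, the cytidine deaminase, rose by 0.75 ± 0.11 and NME3 by 0.72 ± 0.16. The call of CMPK2 was lost without GCA 3, and those of CDA and NME3 with the GC offsets.

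Of 19 genes of nucleotide breakdown and pool cleaning, 2 were higher (10.5%) and 4 lower (21.1%), the latter near the share over all genes, and 4 and 6 with the GC offsets. TYMP, the thymidine phosphorylase, rose by 0.98 ± 0.14 (0.37 with the GC offsets), whereas GDA, the guanine deaminase, fell by 1.13 ± 0.21 and NT5C3A, a pyrimidine nucleotidase, by 0.47 ± 0.14. The fits without GCA 1, without GCA 3, without CON 2, without CON 3 and with the GC offsets did not call NT5C3A (adjusted p up to 0.142 over its alternatives). SAMHD1, which degrades deoxynucleoside triphosphates, was not called (0.30 ± 0.14, adjusted p = 0.121), and was called higher without CON 1 and with the GC offsets. Of 4 nucleoside transporters, SLC29A4 rose by 1.04 ± 0.12 and SLC29A1 fell by 0.37 ± 0.12, the latter lost without CON 2, CON 3, GCA 2 or GCA 3. Neither of the 2 PRPP synthase partners was called.

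Among 8 transcription factor genes listed as regulators of these pathways, 4 were lower and none higher; with the replicate block 4 were lower and 1 higher. E2F2, a cell cycle factor, fell by 0.79 ± 0.14 (adjusted p = 0.00126). MYC went from 563 ± 28.2 to 398 ± 31.7 CPM and fell by 0.50 ± 0.12 (adjusted p = 0.00824), and ATF4, a factor of the amino acid response, fell by 0.49 ± 0.13 (adjusted p = 0.012). E2F3 fell by 0.35 ± 0.12. The call of MYC was lost without GCA 2, and that of ATF4 without CON 3 or GCA 2. That of E2F3 was lost without any library but CON 1, in both limma fits on FPKM and with the GC offsets (-0.059). E2F1 was not called (-0.15 ± 0.13, adjusted p = 0.38), and was called lower with the GC offsets, at -0.61.

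Genes of DNA replication moved beside the enzymes: 13 of 14 listed were lower, with a median log2 fold change of -0.72. CDC6, which loads the replicative helicase, fell by 1.05 ± 0.13, CDC45, a part of that helicase, by 0.94 ± 0.15, MCM6, another part, by 0.92 ± 0.14 and POLA1, the catalytic subunit of the priming polymerase, by 0.90 ± 0.17. Their part in the difference of the nucleotide enzymes was not tested.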

How the data were processed

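RNA sequencing was compared between 3 GCA and 3 CON libraries. The authors deposited raw counts per gene and an FPKM table of the same 16229 symbols, and per the submitters' processing notes hg38 was the build, with HTSeq 0.11.2, HISAT2 2.2.1.0 and fastp 0.20.1 as tools. No source used here gives the annotation or strand setting. The deposited FPKM equals the count over the library total and 1 length per gene in all 16229 genes (relative tolerance 1e-09), so it is no separate measurement.

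Counts were fitted over all genes with edgeR 4.0.16 in R 4.3.3 (TMM, filterByExpr with minimum count 10 and minimum total 15, glmQLFit and glmQLFTest, Benjamini-Hochberg at 0.05), and the procedure was tested on simulated data. The SE is the log2 fold change over the square root of F. Counts of 3 per library correspond to 0.146 to 0.166 CPM, a floor that covers counting error only. Isozyme ratios came from the deposited FPKM, with exact permutation tests; their differences within same-numbered pairs were added after seeing the data. GC content came from GENCODE 29 transcripts for 99.2% of genes and all 33 members.

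Text names all 33 members, up to 4 called genes per further list with the largest changes, and SHMT2, MTHFD2, SAMHD1, MYC, E2F1 and ATF4 whatever their values; a few genes that this rule takes are not reported here. Further lists were folate and one-carbon, other kinases and salvage, breakdown, transporters, PRPP partners, serine supply, regulators, replication, and markers of epithelium, leukocytes, fibroblasts with endothelium, and heart muscle. Members and lists were chosen with earlier results of these data known.

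The 19 alternatives were DESeq2 size factors, upper quartile, library size only, no filter, at least 1 CPM in 3 libraries, DESeq2 1.42.0, limma-voom (limma 3.58.1), limma on log2(FPKM + 1) and on log2(FPKM + 0.1), the replicate block, GC and length offsets (natural splines with 5 degrees of freedom), both together, each library left out, and replicate 1 left out of both groups. For libraries with the same number, deviations from the group mean had correlations over genes of 0.206, 0.137 and 0.104, all over 0.1, and those with different numbers of -0.172 to 0.0954. The numbers may therefore pair the libraries, though the lowest correlation of same-numbered libraries, 0.104, lies close to 0.0954. The reported fit and the permutation tests of 3 libraries against 3 do not use a pairing. It enters only in the replicate block and in the ratios within same-numbered pairs.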

Additional observations from a re-analysis of the deposited data

How the results depend on the processing

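The replicate block kept all 23 falls and the rise of SHMT1, changed no member's call, and gave 5163 calls over all genes (2645 lower, 2518 higher). With GC and length offsets the calls over all genes were 2087 lower and 1489 higher, and with the replicate block as well 2604 and 1735, against 2277 and 2307. The median over members was -0.42 in both of these fits. Leaving out 1 library at a time gave 18 to 24 members lower, 1 to 4 higher, a median of -0.62 to -0.49 and 2621 to 6707 calls over all genes, fewest without GCA 3 and most without CON 1. Without replicate 1 of both groups, 24 members were lower and 5 higher, where 29.3% of all genes were called in each direction (7419 genes). Taken within pairs as a replicate block, an alternative chosen after seeing the data, the isozyme ratios moved one way in 3 of 3 pairs for RRM2/RRM2B, CTPS1/CTPS2, SHMT1/SHMT2, PRPS1/PRPS2 and MTHFD1/MTHFD2 (exact sign-flip p = 0.25 each, the smallest possible). Genes whose sign turned had not been called by the reported fit. With GC and length offsets these were RRM2B 0.12, TK1 -0.40, DTYMK -0.26, CMPK1 0.079 and APRT -0.31, and with the replicate block added 0.13, -0.41, -0.25, 0.079 and -0.30. DCTPP1 was 0.0073 and IMPDH2 0.012 with DESeq2's size factors and equally with DESeq2 itself. With the 1 CPM filter they were 0.023 and 0.023, while DCTPP1 was 0.035 by limma-voom and 0.037 with the replicate block, and DTYMK -0.0014 by library size only. Without replicate 1 of both groups DCTPP1 was 0.31, IMPDH1 0.16 and IMPDH2 0.033. Leaving out 1 library gave DCTPP1 -0.12 to 0.26, IMPDH1 -0.15 to 0.18, IMPDH2 -0.023 to 0.028, DTYMK -0.075 to 0.27 and TK1 -0.048 to 0.28. The cause of these changes was not tested. All 19 alternatives could be fitted, and 3 libraries per group limit the precision of every value.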
